A study of Mus musculus with 24 samples.

Results

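The genes described here build or switch on motile cilia, the beating hairs of airway epithelium. They were taken by symbol: every gene in the deposited tables whose GENCODE M21 symbol begins with Cfap, Dnah, Dnai, Dnaic, Dnaaf, Tekt or Rsph, together with Foxj1 and Tppp3. Of 68 such genes, 63 had a value of 10 normalised counts or more in 4 or more of the 12 epithelial libraries, and these 63, of 16626 genes that passed the same bar in the epithelial table, are the members of the set. Cfap73, Tekt3, the antisense RNA Dnah2os, Rsph6a and Cfap97d1 fell below the bar, Cfap97d1 with 0 in every library of both tables. By the epithelial value that 4 libraries reached, the members nearest to the bar were Cfap299 with 11.6, Cfap99 with 14.6 and Tekt5 with 14.7, and the genes just below it were Cfap73 with 9.55, Tekt3 with 4.02 and Dnah2os with 2.36.

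RNA was sequenced from lung cells of female Balb/c mice aged 8 weeks in 3 arms of 4 mice. Mice of the first arm received 13 Gy to the lungs and a daily neutrophil-depleting antibody, directed at Ly6G (irradiated depleted). The second arm received the same irradiation with a control IgG (irradiated), and the third arm was sham irradiated and given the control IgG (sham). Lungs were taken 7 days after irradiation, and cells negative for CD45, CD31 and Ter119 were sorted by EpCAM into an epithelial (EpCAM+) and a mesenchymal (EpCAM-) fraction, which gave 24 libraries in 6 groups of 4. The protocol wording of the labels names CD45 again in the place where the cell type entries name CD31. An effect of the depleting antibody in unirradiated lungs was not analysed here.

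A motile cilium holds an axoneme, a ring of doublet microtubules around a central pair. Dynein motors on the doublets, as outer and inner arms, bend it, and radial spokes pass signals from the central pair to the arms. Foxj1 is the transcription factor that drives the program of motile ciliogenesis, and in the lung its targets are active in the ciliated cells of the airways, a small part of the epithelium. Because the libraries are bulk samples, fewer ciliated cells and less RNA per ciliated cell cannot be told apart in any value given here.

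The 63 members comprise 29 Cfap genes (cilia and flagella associated proteins, a name that covers several roles), 9 inner-arm and 5 outer-arm dynein heavy chains, Dnah14 (a heavy chain with no assigned arm), 2 dynein intermediate chains, 4 dynein arm assembly factors (Dnaaf), 7 radial spoke genes, 4 tektins (filaments inside the doublets), Foxj1 and the tubulin-binding gene Tppp3. The promoter sequences are shown for a DNA feature that the symbol rule did not use, the X-box core site bound by RFX factors, which work with Foxj1 in ciliogenesis. In RefSeq promoters on GRCm38.p6, from 250 bases before to 50 bases after each gene start, 50 of the 63 members had an entry. The core site GTTGCC, searched on both strands, stood in 21 of these 50 (42% of them), against 14.1% of all 27025 promoters of the table. The longer form GTTNCCATG, which overlaps the core site, was in 6 members (12%) against 2.22% of all promoters. The forkhead core TGTTTA was in 10 members (20%) against 15.1%. These are letter matches, not bound sites. The windows below, 30 bases each, read on the strand that carries the core site, which is in capitals:
Cfap44 (chr16:44394768-44394797, minus strand): ccgtttactgcgGTTGCCatagcaacgtcc
Dnah7a (chr1:53706967-53706996, minus strand): tcgctcctcacaGTTGCCtgccaccctctg
Dnah10 (chr5:124725053-124725082, plus strand): cgcgctggcgccGTTGCCcaggtccccgtt
Cfap46 (chr7:139683807-139683836, plus strand): ggaccagtagcgGTTGCCtagagacggggc
Tekt1 (chr11:72361880-72361909, minus strand): tgcgtccgtccgGTTGCCatagagaccgca
Dnaaf2 (chr12:69198421-69198450, plus strand): agcgcgtgctttGTTGCCatagtaacgcct
Cfap20 (chr8:95434946-95434975, plus strand): gcgcggaacttgGTTGCCaagggactattc
The first 5 of these genes varied with most other members between epithelial libraries, while Dnaaf2 and Cfap20 did not (described with the variation between libraries), so the core site was present on both sides of that divide. Tekt1, however, had a correlation of 0.65 over 12 libraries and of 0.21 without the 2 libraries set apart there. It stood in 13 of the 34 promoters of members with a correlation above 0.5 and in 8 of the other 16.

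The EpCAM gate separated the fractions. Epcam itself averaged 1051 ± 47.9 normalised counts in irradiated depleted, 1071 ± 27.1 in irradiated and 1151 ± 31.9 in sham epithelium (SD, n = 4 each). In mesenchyme Epcam averaged 20.2 ± 6.80 in irradiated depleted, 13.1 ± 7.60 in irradiated and 8.55 ± 7.64 in sham libraries. Recovered reads ranged from 8159062 to 13373329 per epithelial and from 7366672 to 11408083 per mesenchymal library. A gene with 0 reads could still hold up to 3 reads, which is 2.36 to 3.81 normalised counts in the epithelial and 2.48 to 3.66 in the mesenchymal table (counting error only). The leukocyte gene Ptprc, whose product CD45 the gate excludes, was present in every epithelial group, at 130.2 ± 27.9 in irradiated depleted, 185 ± 75.4 in irradiated and 68.4 ± 37.4 in sham libraries.

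The members took a small share of the epithelial reads, and the means of the 3 arms lay within 1 SD of each other. It averaged 0.0897 ± 0.00668% in irradiated depleted, 0.0837 ± 0.0116% in irradiated and 0.0866 ± 0.0117% in sham epithelium (SD, n = 4 each). In mesenchyme it averaged 0.0295 ± 0.00173% in irradiated depleted, 0.0339 ± 0.00127% in irradiated and 0.0295 ± 0.00208% in sham libraries, and all 4 irradiated libraries lay above all libraries of the other 2 arms. The lowest epithelial library, sham replicate 1, held 0.0692% (95% Wilson interval 0.0676 to 0.0708%), below every other sham library.

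Levels of the members differed widely. Per kilobase of exon, Tppp3 had the highest mean over the 12 epithelial libraries, 306 normalised counts per kilobase. Cfap20, a protein of the inner junction of the doublets, followed with 150 per kilobase, and Foxj1 had 66.1. Among the dynein heavy chains, the inner-arm gene Dnah6 was highest per kilobase with 53.7, ahead of the inner-arm genes Dnah3 with 34.3 and Dnah12 with 29.6 and the outer-arm gene Dnah5 with 27.9. Dnah8, an outer-arm heavy chain best known from sperm flagella, had 2.57.

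Most members were far lower in mesenchyme than in epithelium of sham lungs, but not all. Set as RPM from the recovered reads, 20 of the 63 members had a mesenchymal sham mean under 5% of the epithelial sham mean, 28 lay between 5 and 50%, 11 between 50 and 100%, and 4 at or above 100%, with a median of 13.3%. The tables were normalised separately, so these ratios are a description. Cfap65 stood at 0.836%, Foxj1 at 1.14%, Dnah5 at 1.40% and Dnah10 at 1.65%, and Cfap221 and Tekt4 had 0 reads in all 4 mesenchymal sham libraries. The 4 members at or above 100% were Dnaaf2 at 103%, Tppp3 at 104%, Dnah7b at 131% and Dnah8 at 416%.

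**Figure D1:**
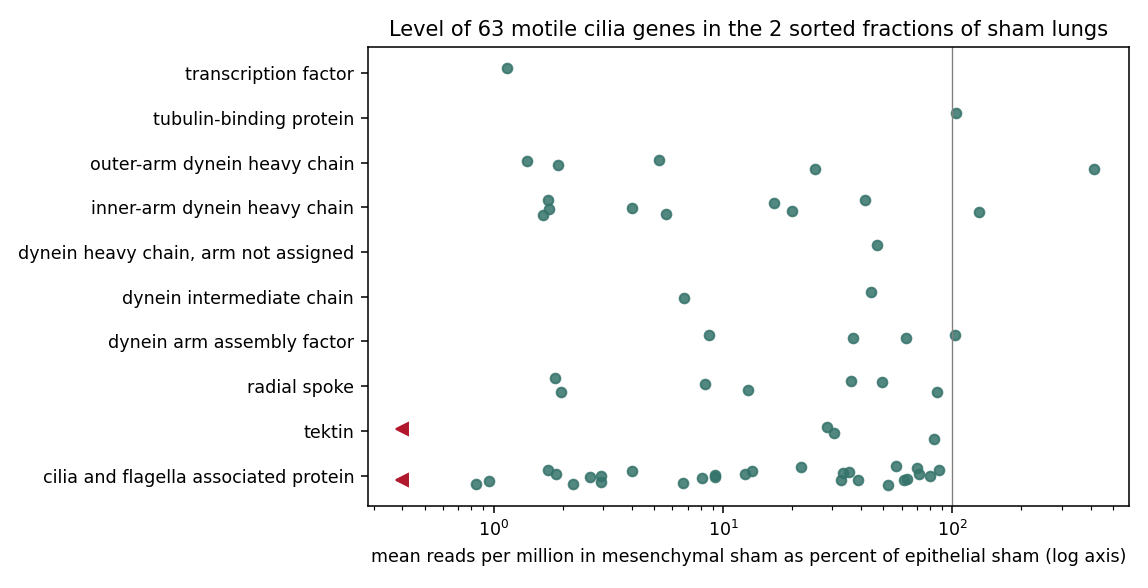
Mean level of each of the 63 members in mesenchymal sham libraries as a percent of its mean in epithelial sham libraries (RPM, n = 4 each, log axis), by role. Most points lie left of 100%, with a median of 13.3%, and Dnah8 lies farthest to the right at 416%.

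In the epithelium, few members were called after irradiation. Of 63 members, 2 were lower in irradiated than in sham epithelium and 0 were higher (limma with Benjamini-Hochberg adjustment over all 16626 genes, adjusted p under 0.05), where 3.14% of all genes tested were called in either direction and 0.878% as lower. The members' median log2 change was -0.04, and 5 of 63 had an unadjusted p under 0.05, beside 2385 of all 16626 genes. The groups did not overlap, with irradiated below sham, for 3 members, Cfap36, Cfap45 and Tppp3, where 3.89% of all genes showed such a gap downward. Of the 29 Cfap genes, which are not independent, 23 had a log2 change below 0, with a median of -0.12, beside 8623 of all 16626 genes below 0.

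Tppp3 (chr8:105467493-105471526, minus strand, GRCm38) fell in both irradiated arms. It had 505, 411, 535 and 416 normalised counts in irradiated depleted libraries and 535, 483, 511 and 552 in irradiated libraries, against 705, 694, 751 and 695 in sham libraries. All 8 irradiated values lay below all 4 sham values. The log2 change from sham was -0.62 ± 0.081 (SE) with the depleting antibody (limma adjusted p 9.69e-05) and -0.45 ± 0.081 with the control IgG (adjusted p 0.0039). Between the 2 irradiated arms it was -0.16 ± 0.081 (adjusted p 0.423). Markers of leukocytes moved with radiation in the same libraries: 5 of 14 leukocyte list genes rose in each irradiated arm, with median log2 changes of 1.18 in irradiated depleted and 1.46 in irradiated against sham epithelium. Their summed level ran from 2435 to 3379 normalised counts in irradiated depleted, 3153 to 4218 in irradiated and 2911 to 3300 in sham libraries, with none of the 14 at 0 in a group. With the leukocyte level as a covariate, the Tppp3 change in irradiated epithelium was -0.34 and no longer called (adjusted p 0.777), while the call in irradiated depleted epithelium was kept. The leukocyte level differs between the arms, so its part and that of the arm cannot be told apart. Markers of other cell types also rose in these libraries. Of 12 mesothelial genes, 8 rose in irradiated depleted (median 1.78) and 1 in irradiated (0.75) against sham epithelium, and their sum ran from 1846 to 3630 normalised counts in irradiated depleted, 1343 to 2706 in irradiated and 1285 to 1617 in sham libraries. Of 16 endothelial genes, 3 rose in irradiated depleted (median 0.63) and 5 in irradiated (1.01), with sums of 2561 to 3644 in irradiated depleted, 2655 to 4367 in irradiated and 1753 to 2386 in sham libraries. Of 9 neutrophil genes tested, 5 rose in irradiated depleted (median 2.22) and 4 in irradiated (2.01), while the sums of the 13 listed overlapped, at 1039 to 2528, 371 to 1301 and 347 to 2220 in irradiated depleted, irradiated and sham libraries, with 1 gene at 0 in sham. Fibroblast genes, 16 in all, had 5 rises and 1 fall in irradiated depleted (median 0.28) and 2 rises in irradiated (0.23). They summed to 20133 to 22385 in irradiated depleted, 17011 to 20352 in irradiated and 15840.5 to 17668.5 in sham libraries. Alveolar type 2 genes fell, 7 of 18 in irradiated depleted (-0.17) and 3 in irradiated (-0.02). Club and secretory genes, 19 tested, had 1 rise and 1 fall in each irradiated arm (-0.19 and -0.37). The part of these lists in the members' values was not tested.

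Cfap45 (chr1:172520801-172545870, plus strand), which codes for a protein inside the doublet microtubules, fell with irradiation and the control IgG. Its normalised counts were 96.5, 107, 91.4 and 102 in irradiated depleted, 75.4, 81.2, 76.9 and 90.0 in irradiated and 92.7, 112, 122 and 116 in sham libraries. Every irradiated value was below every value of the other 2 groups. The log2 change was -0.45 ± 0.12 against sham (adjusted p 0.0469). Irradiated depleted minus irradiated epithelium gave 0.29 ± 0.12 (adjusted p 0.304), which did not pass. The call against sham stood near the threshold and was lost without any 1 of irradiated replicates 1 to 4, sham replicates 2 to 4 and irradiated depleted replicates 1 to 3, with adjusted p from 0.0521 to 0.156. It was also lost with the leukocyte or pan-epithelial level as a covariate and with the length trend removed. The same held with no filter, with only the 2 groups in the fit and with the replicate number as a block. An RNA on the opposite strand, 4933439K11Rik, overlaps its exons with a mean of 23.98 in epithelium, and whether counting used strand is not given in the sources used here.

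No member was called between the irradiated arms in epithelium. Irradiated depleted against irradiated epithelium gave 0 calls among the 63 members by limma, edgeR and DESeq2, beside 0.475% of all genes called by limma. In limma 3 members had an unadjusted p under 0.05, beside 2066 of all 16626 genes. The groups did not overlap, with irradiated depleted above irradiated, for Cfap45 and Cfap70, beside 3.24% of all genes. The median log2 change was 0.11, and 47 of 63 changes were above 0, beside 8345 of all 16626 genes. Most members vary together between libraries, so these signs are not independent. Leaving out 1 library gave medians from 0.021 to 0.23. The 3 members with an unadjusted limma p under 0.05 were Cfap70, Cfap77 (0.48 ± 0.22, adjusted p 0.386) and Cfap45. Cfap70 had 49.4, 47.0, 62.1 and 49.1 in irradiated depleted against 26.4, 39.4, 28.3 and 44.2 in irradiated libraries (log2 0.59 ± 0.21, adjusted p 0.22).

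Against sham, irradiated depleted epithelium had 2 lower members, Tppp3 and Cfap20, and 0 higher ones, where 11.3% of all genes were called in either direction and 4.76% as lower. The groups did not overlap, with irradiated depleted below sham, for 3 members, Cfap20, Cfap298 and Tppp3, beside 7.89% of all genes. Cfap20 (chr8:95420249-95434869, minus strand) had 626, 630.5, 650.0 and 564 normalised counts in irradiated depleted libraries, against 703, 754, 681 and 709 in sham libraries. The change was small (-0.21 ± 0.062, adjusted p 0.039). The irradiated libraries, with 678, 631, 713 and 679, overlapped both. The Cfap20 call was lost without any 1 of irradiated depleted replicates 1, 2 or 4 or of the 4 sham libraries, with adjusted p from 0.054 to 0.131. It was also lost with the leukocyte, motile cilia or pan-epithelial level as a covariate, with no filter, with only the 2 groups in the fit and with the replicate number as a block. The median over all 63 members was 0.10.

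The dynein genes of the epithelium overlapped between arms. Foxj1 (chr11:116330704-116335399, minus strand) had 236, 145, 176 and 217 in irradiated depleted, 125, 209.6, 155 and 211 in irradiated and 105, 154, 178 and 169 in sham libraries, and its log2 change was 0.35 ± 0.21 in irradiated depleted (adjusted p 0.339) and 0.21 ± 0.21 in irradiated against sham epithelium (adjusted p 0.745). Dnah5, the outer-arm heavy chain often mutated in human primary ciliary dyskinesia, a disease of immotile cilia,, had 480.3, 353, 427 and 538 in irradiated depleted, 338, 463, 354 and 549.8 in irradiated and 292, 444, 458 and 546 in sham libraries. Its range within any 1 arm exceeded the difference between the means of the arms. For Dnah6 the values were 821, 681, 875 and 906 in irradiated depleted, 491, 750.1, 566 and 866 in irradiated and 431, 730.0, 677 and 746 in sham libraries, and its log2 changes were 0.37 ± 0.22 and 0.046 ± 0.22 against sham, neither called.

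**Figure D2:**
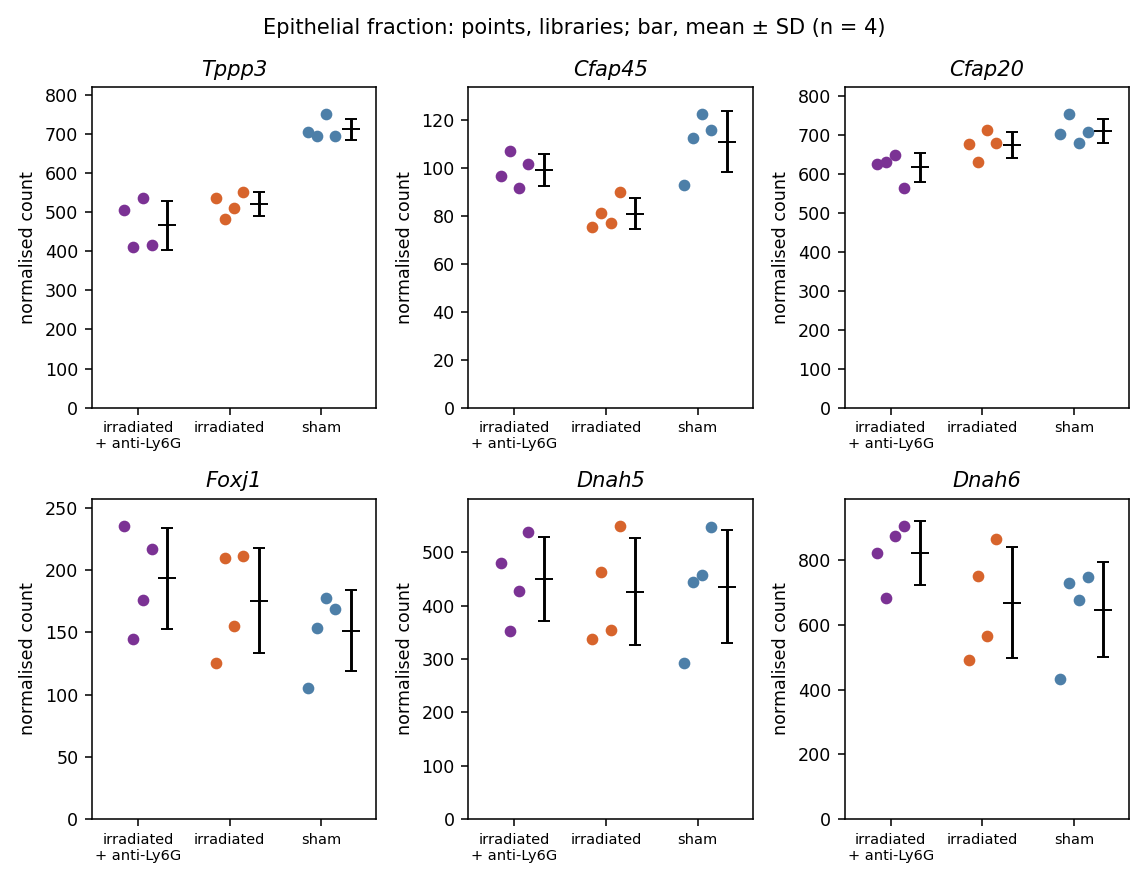
Normalised counts of 6 members in each epithelial library (points), with the group mean and SD (bars), for irradiated depleted, irradiated and sham mice, n = 4 each. Tppp3 lies lower in both irradiated arms than in sham with no overlap, Cfap45 is lower in the irradiated arm, and the other panels show arms that overlap or differ by little.

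The remaining axoneme groups held no call in any epithelial comparison. Among radial spoke genes, the spoke head gene Rsph4a had 102, 76.3, 77.9 and 109 in irradiated depleted, 77.3, 96.1, 90.6 and 85.2 in irradiated and 49.8, 103, 90.2 and 111 in sham libraries. The stalk gene Rsph3b had 166, 159, 182 and 177 in irradiated depleted, 177, 143, 158 and 129 in irradiated and 187, 118, 150.0 and 155 in sham libraries, and since Rsph3a and Rsph3b are near-identical copies the split of reads between them is uncertain. Both genes overlapped between all 3 arms. Of the tektins, Tekt5 had the largest positive change against sham in irradiated epithelium, with 6.85, 16.5, 17.0 and 16.9 in irradiated against 8.78, 6.37, 8.93 and 2.08 in sham libraries (1.08 ± 0.42, adjusted p 0.206), at levels near the bar of 10. Cfap300, a protein needed for dynein arm assembly, had the largest negative one (-0.64 ± 0.30, adjusted p 0.347), with 11.7, 7.09, 8.90 and 14.5 in irradiated against 13.7, 20.2, 11.6 and 22.9 in sham libraries. The assembly factor Dnaaf5 had log2 changes of 0.11 ± 0.11 in irradiated depleted and 0.001 ± 0.11 in irradiated against sham epithelium. Dnaic1 and Dnaic2, intermediate chains of the outer arm, had -0.074 ± 0.20 and 0.20 ± 0.18 in irradiated against sham epithelium.

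Between mice of 1 arm, most members varied together. After removal of the group means, the correlation of a member with the mean of the other 62 over the 12 epithelial libraries had a median of 0.71, with 44 members above 0.5, 24 above 0.8 and 9 below 0. Cfap44, which with Cfap43 tethers inner dyneins to the doublet, had the highest value, 0.975, and Foxj1 had 0.93. Not all members took part: Tppp3 had 0.17, Cfap53 had -0.09, Cfap20 had -0.11, Rsph3b had -0.68 and Dnah17 had -0.79. The points share their library, so these are descriptions. Sham replicate 1 was the lowest sham library for 48 of 63 members, irradiated replicate 1 the lowest irradiated library for 44, irradiated replicate 4 the highest irradiated library for 40 and irradiated depleted replicate 2 the lowest of its arm for 34. Without sham replicate 1 and irradiated replicate 1, the 2 libraries farthest from the median by the members' mean deviation, the median correlation over the other 10 libraries was 0.56, with 37 members above 0.5, 16 above 0.8 and 11 below 0. Dnah17 shares exon sequence with Pgs1 on the opposite strand, which had a mean of 1783 normalised counts in epithelium, against 142.5 for Dnah17, so Dnah17 counts are uncertain. Of the 63 members, 30 have an exon that overlaps another gene, and in 16 that gene had a mean of at least 10 in a table.

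**Figure D3:**
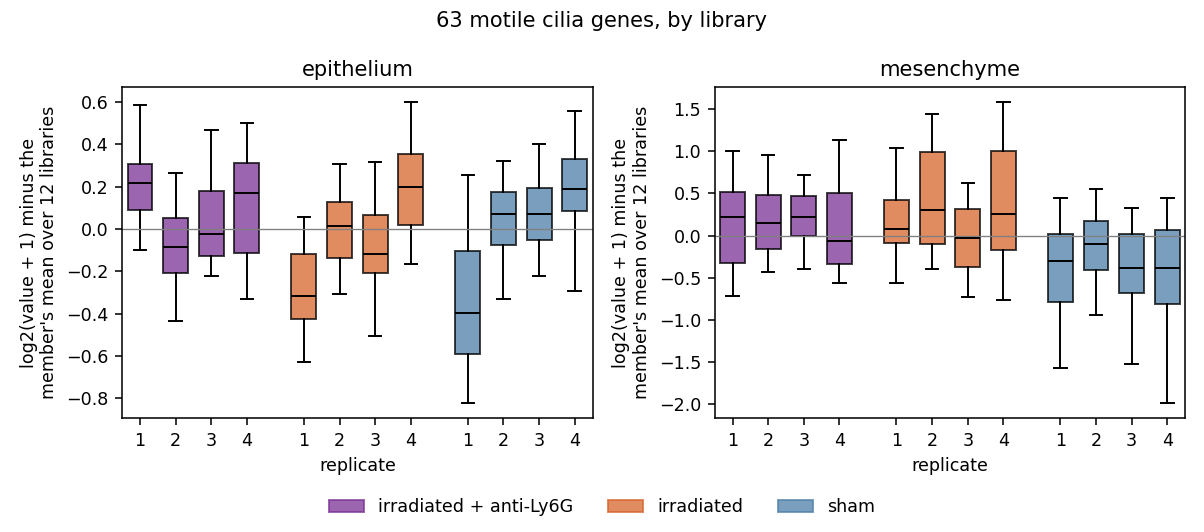
Deviation of each of the 63 members from its own mean over the 12 libraries of a fraction, as log2(value + 1), by library and arm (boxes, quartiles and median over members; whiskers, 5th to 95th percentile; irradiated depleted, irradiated, sham from left to right). In epithelium sham replicate 1 and irradiated replicate 1 lie low within their arms, and in mesenchyme the 4 sham medians are the lowest.

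The genes most like the member mean over the same 12 libraries, among 11476 other genes with a mean of at least 50, were Ccdc39 (r = 0.974), Spag17 (0.968), Hydin (0.964), Lrriq1 (0.955), Cyp2s1 (0.951), Cdhr3 (0.934), Wdr63 (0.933), Prr18 (0.933), Adgb (0.931) and Kat6b (0.925). Of these 10, 6 belonged to a list of 73 other motile cilia genes.

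In the mesenchymal fraction, where most members are scarce, most calls of a higher member were in irradiated depleted against sham mesenchyme. Of the 43 members tested there, 2 rose and 0 fell in irradiated against sham mesenchyme (limma, adjusted over all 16624 genes), where 3.8% of all genes were called in either direction and 2.64% as higher. In irradiated depleted against sham mesenchyme 11 members rose and 1 fell, where 15.2% of all genes were called, 8.51% as higher and 6.7% as lower. The groups did not overlap, with irradiated above sham, for 9 members, beside 6.26% of all genes, and with irradiated depleted above sham for 12, beside 10.3%, and below sham for 1, beside 9.07%. A gene could pass the bar of 10 in 4 libraries through the irradiated groups alone: 5 of the 43, Cfap54, Cfap65, Dnah10, Dnah11 and Dnah12, reached 10 in 0 of the 4 sham libraries, and these include both members that rose in irradiated and 4 of the 11 that rose in irradiated depleted mesenchyme. The counts and medians over the 43 are therefore a description of the tested genes only. Of the 27 members that reached 10 in all 4 sham libraries, 0 rose in irradiated and 5 rose in irradiated depleted mesenchyme.

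The members that rose in both irradiated arms were Dnah10 and Cfap65. Like Cfap54, Dnah11 and Dnah12, neither reached 10 in any sham library. Both were tested only through the irradiated arms, where they were high, so their calls are a description. Dnah10 (chr5:124725085-124834308, plus strand), an inner-arm heavy chain, had 18.4, 11.7, 14.5 and 19.1 normalised counts in irradiated depleted and 12.4, 20.5, 6.10 and 35.4 in irradiated libraries, against 3.04, 3.31, 6.06 and 1.66 in sham libraries. All 8 irradiated values were above the sham values, though irradiated replicate 3 was close to the highest of them. The log2 change was 1.97 ± 0.45 in irradiated depleted (adjusted p 0.00834) and 1.96 ± 0.45 in irradiated against sham mesenchyme (adjusted p 0.0281). Cfap65 (chr1:74902071-74935599, minus strand), known for its role in sperm flagella, had 15.4, 12.6, 9.66 and 14.1 in irradiated depleted and 7.22, 18.2, 5.09 and 34.2 in irradiated libraries, against 1.01, 3.31, 2.02 and 1.66 in sham libraries. All 8 irradiated values were above all 4 sham values, which lay near or below what 3 reads are worth. Its log2 change was 2.25 ± 0.49 in irradiated depleted (adjusted p 0.00609) and 2.23 ± 0.49 in irradiated against sham mesenchyme (adjusted p 0.0228). At such levels the size depends on the pseudocount: for irradiated against sham mesenchyme it was 2.45 for Cfap65 and 2.10 for Dnah10 with a pseudocount of 0.5, and 1.12 and 1.10 with 8.

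Among the outer-arm heavy chains, Dnah5 (chr15:28203752-28472052, plus strand) had 25.6, 24.3, 25.1 and 26.2 normalised counts in irradiated depleted and 12.4, 26.2, 4.07 and 26.8 in irradiated mesenchyme, against 1.01, 14.9, 4.04 and 0.832 in sham mesenchyme. The irradiated depleted libraries were close to each other and above every sham library, while the irradiated libraries overlapped sham. In sham only the value of 14.9 reached 10, so Dnah5 passed the bar through the irradiated arms, where it was high. Its call is therefore a description. The log2 change was 2.67 ± 0.66 in irradiated depleted (adjusted p 0.0155) and 1.86 ± 0.66 in irradiated against sham mesenchyme (adjusted p 0.125). Without sham replicate 1 the irradiated depleted change was no longer called (adjusted p 0.0506). Dnah11 had 15.4, 12.6, 12.6 and 13.1 in irradiated depleted and 10.3, 22.8, 5.09 and 23.2 in irradiated libraries, against 4.06, 4.96, 0 and 4.16 in sham libraries. It rose in irradiated depleted (2.02 ± 0.56, adjusted p 0.0224) and missed the threshold in irradiated mesenchyme (2.00 ± 0.56, adjusted p 0.056). With no sham value at 10, Dnah11 was tested only through the irradiated arms, so its call is a description. Dnah9 had 28.7, 36.0, 28.0 and 23.2 in irradiated depleted and 16.5, 26.2, 23.4 and 48.8 in irradiated libraries, against 11.2, 19.9, 13.1 and 13.3 in sham libraries, and rose in irradiated depleted mesenchyme (0.98 ± 0.29, adjusted p 0.0345).

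Dnah3, Dnah12 and Dnah6, further inner-arm heavy chains, were also called higher in irradiated depleted mesenchyme. Dnah3 had 15.4, 23.4, 17.4 and 23.2 in irradiated depleted and 16.5, 39.8, 9.15 and 43.9 in irradiated libraries, against 4.06, 13.2, 8.08 and 2.49 in sham libraries. Its change was called in irradiated depleted mesenchyme (1.57 ± 0.49, adjusted p 0.0436), and its change in irradiated mesenchyme was 1.79 ± 0.49 (adjusted p 0.0554). In sham only the value of 13.2 reached 10, so Dnah3 passed the bar through the irradiated arms, where it was high. Its call is therefore a description. The Dnah3 call was lost with edgeR, no filter or a pseudocount of 8. Dnah3 exons overlap Lyrm1 on the opposite strand, with a mesenchymal mean of 14.4 against 18.1 for Dnah3, so its counts are uncertain. Dnah12 was at 11.3, 15.3, 18.4 and 13.1 in irradiated depleted and 11.3, 27.3, 6.10 and 39.0 in irradiated libraries, against 5.07, 4.96, 5.05 and 4.99 in sham libraries. All 8 irradiated values were above the sham values. However, 3 reads are worth 3.05 in irradiated replicate 3 (6.10) and 2.48 in sham replicate 2 (4.96), so these values stand for the same number of reads. The irradiated depleted change was called (1.34 ± 0.44, adjusted p 0.0489). With no sham value at 10, Dnah12 was tested only through the irradiated arms, where it was high, so this call is a description. The Dnah12 call was also lost with edgeR, no filter or a pseudocount of 8. Dnah6, the most abundant heavy chain of the epithelium per kilobase, had 75.8, 65.7, 49.3 and 55.4 in irradiated depleted and 40.2, 84.2, 40.7 and 112 in irradiated libraries, against 29.4, 37.2, 31.3 and 29.1 in sham libraries. It also lay above sham in all 8 irradiated libraries and had a called change in irradiated depleted mesenchyme (0.92 ± 0.28, adjusted p 0.0399). Reads of Dnah7a, Dnah7b and Dnah7c, near-identical copies, may be split between them, and none of the tested copies was called.

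Of the Cfap genes, Cfap53, a protein of the doublet lumen, had 85.1, 51.3, 50.3 and 87.7 in irradiated depleted and 44.4, 38.7, 59.0 and 79.3 in irradiated libraries, against 31.4, 34.8, 15.1 and 27.4 in sham libraries. It rose in irradiated depleted mesenchyme (1.32 ± 0.29, adjusted p 0.00664) although it did not follow the other members in epithelium. Cfap100, which in Chlamydomonas acts on an inner dynein, had 50.2, 65.7, 50.3 and 57.4 in irradiated depleted and 35.1, 54.6, 53.9 and 56.1 in irradiated libraries, against 44.6, 23.2, 38.4 and 34.9 in sham libraries, and rose in irradiated depleted mesenchyme (0.68 ± 0.21, adjusted p 0.0413). Its exons overlap Zxdc on the opposite strand, so its counts are uncertain. Cfap43 was abundant in mesenchyme, with 232, 219, 221 and 243 in irradiated depleted and 221, 244, 238 and 227 in irradiated libraries, against 205, 200.2, 179 and 158 in sham libraries, and rose by a small amount in irradiated depleted mesenchyme (0.31 ± 0.091, adjusted p 0.0332).

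Tppp3 went the other way. In mesenchyme it had 386, 405, 491 and 246 normalised counts in irradiated depleted and 762, 525, 585 and 495 in irradiated libraries, against 733, 611, 580.5 and 654 in sham libraries. The irradiated depleted values lay below all values of the other 2 groups. It fell in irradiated depleted against sham mesenchyme (-0.79 ± 0.19, adjusted p 0.0163), with a change of -0.65 ± 0.19 against irradiated (adjusted p 0.0996) and of -0.14 ± 0.19 for irradiated against sham mesenchyme (adjusted p 0.73). Foxj1 was too low to be tested in mesenchyme: it had 7.17, 13.5, 6.76 and 7.06 in irradiated depleted and 4.13, 13.7, 8.14 and 14.6 in irradiated libraries, against 1.01, 3.31, 0 and 1.66 in sham libraries. All 8 irradiated values lay above the sham values, but the gap rests on few reads. In irradiated replicate 1 (4.13) 3 reads are worth 3.09 normalised counts, and in sham replicate 2 (3.31) they are worth 2.48. These 2 values therefore stand for the same number of reads and differ only by scaling.

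**Figure D4:**
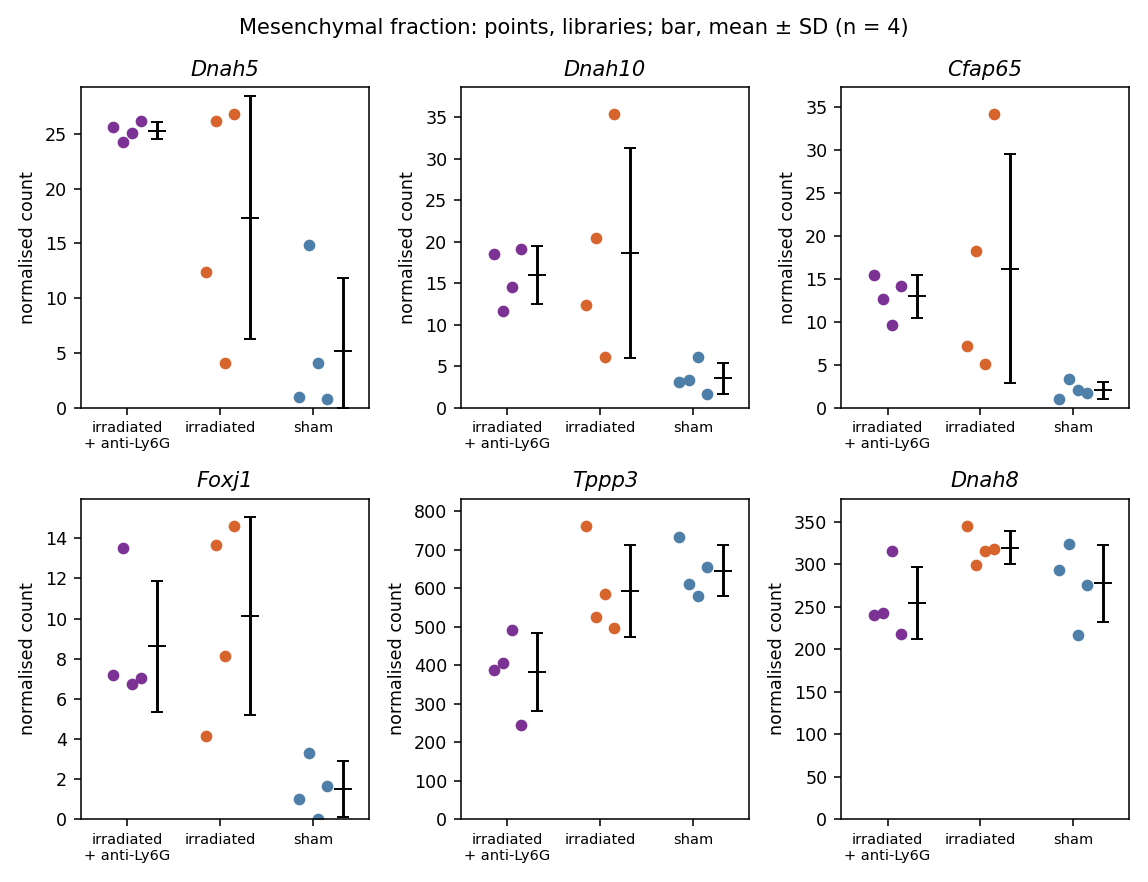
Normalised counts of 6 members in each mesenchymal library (points), with the group mean and SD (bars, cut at 0), for irradiated depleted, irradiated and sham mice, n = 4 each. Dnah10, Cfap65 and Foxj1 are higher in all 8 irradiated libraries than in sham, where their values rest on few reads. Tppp3 is lowest in irradiated depleted mesenchyme.

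Markers of epithelium rose in the same mesenchymal libraries. Of 13 pan-epithelial genes tested, 6 rose in irradiated depleted and 3 (Krt7, Krt8 and Cldn3) in irradiated against sham mesenchyme, with median log2 changes of 1.00 and 0.85. The 14 genes of that list summed to 568 to 786 normalised counts in irradiated depleted, 499 to 729.5 in irradiated and 281 to 455 in sham libraries, and none was at 0 in a group. Cdh1, the adhesion protein E-cadherin, averaged 136 ± 42.3 in irradiated depleted, 132 ± 28.0 in irradiated and 73.1 ± 18.0 in sham mesenchyme, against 7783 to 8727 in the means of the epithelial groups. The club cell gene Scgb1a1, a marker of the airway cells that neighbour ciliated cells, averaged 1567 ± 481 in irradiated depleted, 1190.1 ± 379 in irradiated and 746 ± 89.6 in sham mesenchyme. Of 15 club and secretory genes, 7 rose in irradiated depleted and 2 in irradiated against sham mesenchyme. The largest of the 7 log2 changes were those of Hp (3.46) and Reg3g (3.37). These were also the only 2 genes of the list called between the irradiated arms in mesenchyme (2.12 and 2.16). The 20 listed summed to 9017 to 13924 normalised counts in irradiated depleted, 6352 to 8850 in irradiated and 7298 to 8992 in sham libraries, with 1 gene at 0 in each irradiated arm. Alveolar markers moved too. Of 17 type 2 genes, 2 rose in irradiated depleted and 1 in irradiated (medians 0.52 and 0.63). The 2 were Il33 (2.17) and Muc1 (0.57), and Il33 also rose in irradiated depleted against irradiated mesenchyme (2.09). Of 16 type 1 genes, 6 rose and 2 fell in irradiated depleted and 0 were called in irradiated (0.64 and 0.59). Among the 6, Pdpn (1.38) also rose in irradiated depleted against irradiated mesenchyme (0.94). With the pan-epithelial level as a covariate, chosen after seeing the data, 0 members were called in either comparison with sham. That level differs between the arms, so its part in the members' change and that of the arm cannot be told apart. Leukocyte genes also rose, 2 of 14 in irradiated depleted and 3 in irradiated against sham mesenchyme, and with their level as a covariate 3 members were called in irradiated depleted and 0 in irradiated against sham mesenchyme. Neutrophil genes rose too, 6 of 11 tested in irradiated depleted (1 fell) and 4 in irradiated against sham mesenchyme, and 1 and 0 of 16 endothelial genes, with medians of 0.61 and 1.00. Their part was not tested.

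Members that varied together in epithelium had the larger median change in mesenchyme. Over all 63 members, without the bar on low values, the 24 with an epithelial correlation above 0.8 had a median mesenchymal log2 change of 0.95 in irradiated depleted and 0.98 in irradiated against sham mesenchyme. The 20 members between 0.5 and 0.8 had medians of 0.31 and 0.46, and the 19 members at 0.5 or below had 0.06 and 0.13. In that fit 7, 0 and 1 members of these 3 classes rose and 0, 0 and 1 fell in irradiated depleted, and 3, 0 and 0 rose in irradiated against sham mesenchyme. In epithelium the same 3 classes had medians of 0.17, 0.05 and -0.03 in irradiated depleted and 0.01, -0.11 and -0.08 in irradiated against sham. Mesenchymal level differed between members too. As a percent of epithelial sham, Cfap65 (0.836%) and Foxj1 (1.14%) but also Tekt2 (82.9%) had correlations above 0.8. Tppp3 (104%) and Dnah8 (416%) but also Rsph14 (1.96%) had correlations of 0.5 or below. At low levels few reads make a large log2 change, and the part of level was not tested. Across the 43 tested members, which are not independent and of which some passed the bar through the irradiated groups alone, log10 exon length and the mesenchymal log2 change had a Pearson r of 0.37 and a Spearman rho of 0.24 in irradiated depleted, and 0.44 and 0.38 in irradiated against sham.

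**Figure D5:**
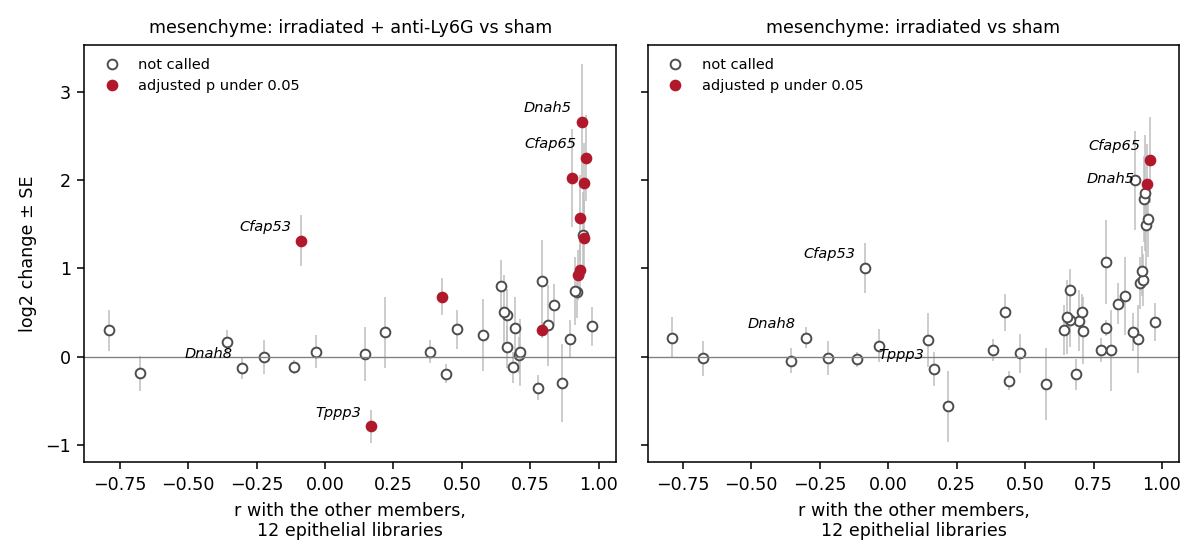
Mesenchymal log2 change of each tested member with its SE (y axis) against its correlation with the other members over the 12 epithelial libraries (x axis), for irradiated depleted against sham and for irradiated against sham; filled points had an adjusted p under 0.05. In irradiated depleted mesenchyme the points right of a correlation of 0.8 span log2 changes of -0.30 to 2.67, and those at 0.5 or below span -0.79 to 1.32; only members that passed the bar on low values are drawn.

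Comparing the 2 irradiated arms in mesenchyme, limma called 0 of 43 members, beside 2.69% of all genes, while edgeR called 0 and DESeq2 1. In limma 6 members had an unadjusted p under 0.05, beside 2983 of all 16624 genes. The median log2 change was -0.02, and irradiated depleted lay below irradiated without overlap for Dnah2 and Tppp3, beside 3.93% of all genes. The lowest changes were those of Tekt2 (-0.99 ± 0.44), Tppp3, Dnah2 (-0.65 ± 0.24) and Cfap45 (-0.48 ± 0.21). Without irradiated depleted replicate 3, 3 members were called. Dnah8, which had more reads in mesenchyme than in epithelium, had 241, 243, 316 and 218 in irradiated depleted and 346, 299, 315 and 318 in irradiated libraries, against 293, 324, 217 and 276 in sham libraries, and was not called in any comparison (-0.34 ± 0.12 between the irradiated arms, adjusted p 0.156).

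The counts in mesenchyme depended on single libraries. For irradiated against sham, 0 members were called without irradiated replicate 2, irradiated replicate 4 or sham replicate 1, 1 without sham replicate 3 or 4, 6 without irradiated replicate 3 and 8 without sham replicate 2. For irradiated depleted against sham, 5 were called without irradiated depleted replicate 1 or sham replicate 3, 6 without irradiated depleted replicate 2 or sham replicate 4, and 7 without irradiated depleted replicate 4. The Cfap65 call in irradiated mesenchyme was lost without irradiated replicate 2 or 4 or sham replicate 1 or 3 (adjusted p 0.0569 to 0.0897), and that of Dnah10 without irradiated replicate 2 or 4 or sham replicate 1 or 4 (0.0617 to 0.101). In irradiated depleted mesenchyme the calls of Dnah10, Cfap65, Cfap53 and Tppp3 were kept without any 1 library. Dnah5 was lost without 1 library (sham replicate 1), Dnah11 without irradiated depleted replicate 1 or sham replicate 3, and Cfap43 without any 1 of 5, Dnah6 and Dnah9 of 6, Dnah3 and Cfap100 of 7 and Dnah12 of 9, with adjusted p from 0.05004 to 0.117 over these genes.

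The response to radiation of the 2 fractions was set against each other in 1 fit over all 24 libraries and 15092 genes. For irradiated against sham, epithelium minus mesenchyme, limma called 0 of 43 members, beside 0.629% of all genes, while edgeR called 2 and DESeq2 7. In limma 14 members had an unadjusted p under 0.05, beside 2012 of all 15092 genes. The differences nearest to the threshold were Cfap65 (-2.20 ± 0.52, adjusted p 0.0506), Cfap45 (-0.95 ± 0.23, adjusted p 0.0531) and Dnah10 (-1.88 ± 0.50, adjusted p 0.0806). The Cfap65 and Dnah10 changes in epithelium were 0.031 ± 0.19 and 0.08 ± 0.21, so their differences were about the size of the mesenchymal change, while Cfap45 was at -0.45 ± 0.12 in epithelium and 0.50 ± 0.21 in mesenchyme. For irradiated depleted against irradiated, limma called 0 members, beside 0.596% of all genes, with Cfap45 at 0.78 ± 0.23 (adjusted p 0.145). Here 5 members had an unadjusted p under 0.05 in limma, beside 1701 of all 15092 genes.

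Other genes of the cilium gave few calls. Of 69 tested genes of a list of other motile cilia genes, 0 were called in irradiated against sham epithelium and 0 between the irradiated arms, and 2 fell in irradiated depleted against sham epithelium, Ccdc146 (-0.57 ± 0.11) and Sec14l3 (-0.29 ± 0.068), with a list median of 0.14. In mesenchyme 31 were tested: Sec14l3 rose (1.23 ± 0.33) and Tsga10 fell (-0.61 ± 0.14) in irradiated depleted against sham, and 0 were called in the other comparisons. The list median was -0.08 in irradiated depleted against sham, with 17 of 31 below 0, beside 34 of 43 members above 0. In irradiated against sham mesenchyme it was 0.07 with 23 of 31 above 0, beside 34 of 43 members. The signs within a list are not independent. The 72 listed genes present summed to 1632 to 1779 normalised counts in irradiated depleted, 1622 to 1994 in irradiated and 1493 to 1604 in sham mesenchyme. Of these genes, 1 was at 0 in irradiated depleted, 0 in irradiated and 3 in sham mesenchyme. Among 14 tested regulators of multiciliogenesis in epithelium, Deup1, which builds the structures that multiply centrioles, rose (1.16 ± 0.33, adjusted p 0.0294) and Rfx2, an RFX factor, fell (-0.50 ± 0.12, adjusted p 0.00937) in irradiated depleted against sham, and 0 were called in the other 2 comparisons. Of 35 genes of intraflagellar transport and the BBSome, which carry cargo along cilia of all kinds, Dync2li1, a light chain of the retrograde motor, fell in both irradiated depleted (-0.78 ± 0.11) and irradiated (-0.44 ± 0.11) against sham epithelium. The tubulin gene Tuba1b fell in irradiated depleted against sham epithelium (-0.23 ± 0.071) and in irradiated against sham mesenchyme (-0.35 ± 0.092), and Tuba1a fell in irradiated depleted against sham mesenchyme (-0.46 ± 0.13). None of 9 dynein arm assembly factors outside the symbol rule was called in epithelium.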

How the data were processed

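Total RNA of 24 sorted fractions was depleted of ribosomal RNA and sequenced, per the labels' protocols. Per the submitters' processing notes, the authors used cutadapt 1.5, STAR 2.2.2a, SAMtools 1.8, RSEM 1.3.0 and DESeq2 with GRCm38. The deposited signal, in 1 table per fraction for 48795 identifiers, is a normalised count: the gene's count after division by its library's size factor. Each column's values were whole multiples of a step (tolerance 0.001), which gave back whole reads for 100% of them. In 2 mesenchymal columns (sham replicate 3, irradiated depleted replicate 4) this step was within 1% of 1, so it says little about their scale. Whether strand was used in counting is not given in the sources used here.

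Tests used log2(value + 1) in limma 3.58.1 (trend, robust) in R 4.3.3, the 3 groups of a fraction in 1 fit, for genes with at least 10 in at least 4 libraries, and p-values were adjusted over all genes tested. Fold changes are on that scale and understate those of low genes. A fit over both fractions gave the difference of their changes. Each group held 4 mice, and errors of means are SDs. Alternatives were edgeR 4.0.16 and DESeq2 1.42.0 on recovered reads, other filters, pseudocounts and scalings, covariates, library weights and leaving out each library. Only the limma comparison of irradiated with sham epithelium was run on simulated counts with known changes. The mesenchymal fits and the alternatives were not. Positions and symbols came from GENCODE M21 and promoters from RefSeq (GRCm38.p6), whose strain is not Balb/c. Intervals and floors reflect counting error only, as the reads carry no molecular identifiers and are not independent. Named genes were the called members, Foxj1, Tppp3, the most abundant of each role, the largest epithelial changes, those nearest the bar and the most abundant in mesenchyme. Of the other members named, Rsph4a, Cfap36, Cfap44, Cfap54, Cfap77, Cfap221, Cfap298, Dnah17 and Tekt4 were chosen after their values were seen. The members and lists were chosen with earlier results of these data known.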

Additional observations from a re-analysis of the deposited data

Results flagged for a closer look

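In 99 groups of 4 libraries a lone value was looked for, by Dixon's test of the gap to the nearest library against the range of the group, and 6 were found; chance alone gives about 1 in 20 groups. In irradiated depleted epithelium Cfap70 was highest in replicate 3, with 62.1 normalised counts. In irradiated epithelium Tekt5 was lowest in replicate 1, with 6.85. In irradiated depleted mesenchyme Foxj1 was highest in replicate 2, with 13.5, and in irradiated mesenchyme Cfap100 was lowest in replicate 1, with 35.1. The members' share of reads was lowest in sham epithelium replicate 1, at 0.0692%. The mean log2 level of the 63 members in sham mesenchyme was highest in replicate 2, at 3.72.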

How the results depend on the processing

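Of the named members' values under the alternatives, 1362 kept direction and side of the threshold, 122 lost the call, 51 gained it and 2 changed sign, both with the pan-epithelial level as a covariate (chosen after seeing the data): Dnah5 in irradiated against sham mesenchyme at -0.070 and Dnah3 in irradiated depleted against sham mesenchyme at -0.18. Of 18 calls that covariate lost 15 besides that of Dnah3, the leukocyte level 14, no filter 6, the motile cilia level 6, only the 2 groups 5, the replicate block 3, edgeR 2, a pseudocount of 8 2 and the length trend 1. In irradiated against sham epithelium the count of called members was 1 with the length trend removed, no filter, only the 2 groups, the pan-epithelial level or the replicate block, and 0 with the leukocyte level (1 to 2 leaving out 1 library). In irradiated depleted against sham epithelium it was 1 with the motile cilia level, no filter, only the 2 groups, the pan-epithelial level or the replicate block (1 to 2 leaving out 1 library). In irradiated against sham mesenchyme it was 8 with DESeq2, 7 with the replicate block, 4 with edgeR and with library weights, and 0 with the leukocyte, motile cilia or pan-epithelial level, a mean of at least 50 or only the 2 groups (0 to 8 leaving out 1 library). In irradiated depleted against sham mesenchyme it was 3 with the leukocyte level, 4 with a mean of at least 50 and 0 with the pan-epithelial level (5 to 12 leaving out 1 library). Between the irradiated arms in mesenchyme it was 1 with DESeq2 (0 to 3 leaving out 1 library). For the difference between fractions, irradiated against sham, it was 7 with DESeq2, 2 with edgeR, the leukocyte level or library weights, and 1 with TMM, the length trend removed or a pseudocount of 0.5 or 8 (0 to 5 leaving out 1 library), and for irradiated depleted against irradiated 0 to 1. Median log2 changes with a mean of at least 50 were 0.057 and 0.074 in irradiated depleted and irradiated against sham mesenchyme. Leaving out 1 library, the medians ran from 0.021 to 0.23, -0.066 to 0.18 and -0.19 to 0.045 in epithelium (irradiated depleted against irradiated, irradiated depleted against sham, irradiated against sham) and from -0.062 to 0.058, 0.29 to 0.36 and 0.27 to 0.38 in mesenchyme in the same order. For these the cause was not tested, except that a stricter filter tests fewer members. Same-numbered libraries did not deviate together (r from -0.11 to 0.15 in epithelium and -0.052 to 0.17 in mesenchyme), and between the fractions same-numbered libraries had r from -0.037 to 0.25 (median 0.11), against -0.19 to 0.11 for different numbers, so not every pair deviated together and the labels do not say which 2 fractions came from 1 mouse. With the replicate block across fractions 0 members were called in either comparison, and the calls over all genes were 19 instead of 90 for irradiated depleted against irradiated and 31 instead of 95 for irradiated against sham. Mesenchymal dynein values rest on few reads and depth limits them.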

Other observations

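The 20 members too low to be tested in mesenchyme had a summed level there of 59.9 ± 6.71 normalised counts in irradiated depleted, 76.5 ± 30.0 in irradiated and 31.9 ± 9.06 in sham libraries (SD, n = 4 each). In epithelium the same 20 summed to 1003 ± 139 in irradiated depleted, 895 ± 157 in irradiated and 901 ± 213 in sham libraries. The irradiated mesenchymal libraries ran from 41.7 to 112, the irradiated depleted from 51.2 to 66.6 and the sham from 23.3 to 44.7, so that the irradiated depleted libraries did not overlap sham and the irradiated libraries did.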
